A study of Mus musculus with 18 samples.

Results

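The Slc25 genes encode the mitochondrial carriers, the proteins that move metabolites, nucleotides, iron and cofactors across the inner mitochondrial membrane. The members were all rows of the RNA table whose symbol begins with Slc25a and a number. There were 44 such genes among 26599 in the table, each with a single row. The rule that picks them reads the symbol alone. RNA was compared in MEL cells, a mouse erythroleukemia line that begins to make hemoglobin in dimethyl sulfoxide (DMSO). The day 5 group was taken after 5 days in 2% DMSO, and the day 0 group before its addition. Each day had 2 biological replicate cultures, per the labels, so 4 libraries were compared. MEL cells are a transformed line, and the culture was judged by color and benzidine staining to hold mostly, but not solely, hemoglobin-containing cells on day 5.

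Mitochondrial carriers are built from repeats of a pair of membrane helices, and each swaps or imports a narrow set of small molecules. They set what the mitochondrial matrix can use: ADP and phosphate for ATP synthesis, citrate and malate for carbon exchange, and glycine and iron for heme. Red cell precursors depend on this traffic because the first and the last steps of heme synthesis take place inside the mitochondrion. Mitoferrin 1 (Slc25a37) is known as the main iron importer of red cell precursors, and loss of human SLC25A38 causes an inherited sideroblastic anemia.

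Values are FPKM, which are scaled per length and can be compared between genes. A gene was tested when it reached 1 FPKM in at least 2 libraries. The test was limma on log2(FPKM + 1) over all 10736 genes that passed. A gene was called at a Benjamini-Hochberg adjusted p under 0.05, and rose or fell is said of called genes only. Fold changes on this scale, day 5 over day 0, understate the change of low genes. The libraries held 10580 and 10601 genes at 1 FPKM or more on day 5, and 10432 and 10227 on day 0. FPKM carry no read depth, which is therefore unknown. The 10 erythroid marker genes summed to 30430 and 25865 FPKM on day 5, against 1847 and 1297 on day 0. Hba-a1 (17923 and 14670 FPKM) and Hbb-b1 (10387 and 8734 FPKM) held most of the day 5 sums. Of 10 myeloid markers 8 were under 1 FPKM in all 4 libraries, among them Csf1r and Lyz2. The list summed to 1.24 and 3.35 FPKM on day 5, against 14.7 and 8.84 on day 0. Fcgr3 (0.614 and 1.26 FPKM on day 5, against 13.5 and 8.08 on day 0) held most of the day 0 sums. Of 6 mast cell and megakaryocyte markers Cpa3, Mcpt8 and Ppbp were listed at 0. The list summed to 132 and 106 FPKM on day 5, against 66.9 and 21.8 on day 0, with members in opposite directions. Itga2b had 104 and 92.8 FPKM on day 5, against 15.4 and 7.32 on day 0. Hdc had 0.382 and 0.376 FPKM on day 5, against 10.2 and 6.13 on day 0, and Pf4 overlapped between days. All 6 lymphoid and fibroblast markers were under 1 FPKM in the 4 libraries, summing to 0.192 and 0 FPKM on day 5, against 0.36 and 0 on day 0. Globin genes made up 3.98% and 3.74% of all FPKM on day 5, against 0.217% and 0.134% on day 0, and mitochondrially encoded genes 8.46% and 10.3% on day 5, against 4.88% and 6.45% on day 0. The part of these markers and shares in the results was not tested, beyond a fit with globin and mitochondrially encoded genes removed, in which Slc25a37 and Slc25a4 also passed.

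Of the 44 members 36 were tested. Slc25a37 was the sole member called higher on day 5, and Slc25a4, the ADP/ATP translocase ANT1, the sole member called lower. These 2 calls are 5.56% of the members tested, a smaller share than the background: 18.5% of all genes tested were called, 10.7% higher and 7.81% lower on day 5 (1150 and 839 genes, and 814 and 895 after quantile normalization). At an unadjusted p under 0.05 there were 9 members, or 25.0%, against 38.6% of all genes. The day 5 libraries lay on 1 side of both day 0 libraries for 20 members, or 55.6%, against 67.2% of all genes: 10 members above and 10 below, where the background was 40.2% above and 27.0% below. A log2 fold change of at least 1 in either direction was found for 3 members (8.33%), against 23.7% of all genes. The median log2 fold change of the members tested was 0.06, and that of all genes 0.15. The members' median was -0.15 after quantile normalization, beside 0.01 for all genes, -0.04 without day 5 replicate 1 and -0.16 without day 0 replicate 2. No test was made of the members as a set. The members split almost evenly, 19 with a log2 fold change above 0 and 17 below. No member passed the filter through the libraries of a single day, and 33 of the 36 reached 1 FPKM in all 4 libraries.

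The Slc25a genes together summed to 1889 and 1663 FPKM in the day 5 libraries, against 2202 and 2196 FPKM in the day 0 libraries. This was 0.24% and 0.213% of all FPKM on day 5, and 0.284% and 0.29% on day 0. Slc25a5, Slc25a3 and Slc25a4 held most of this sum, 59.8% and 56.7% on day 5 and 63.5% and 66.8% on day 0. With these 3 and Slc25a39 set aside, the remaining members summed to 665 and 550.1 FPKM on day 5, against 565 and 512 FPKM on day 0, so the day 5 and day 0 ranges of that remainder overlapped. By mean FPKM over the 4 libraries, 4 members exceeded 100, 21 lay between 10 and 100, 10 between 1 and 10, and 9 under 1.

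**Figure D1:**
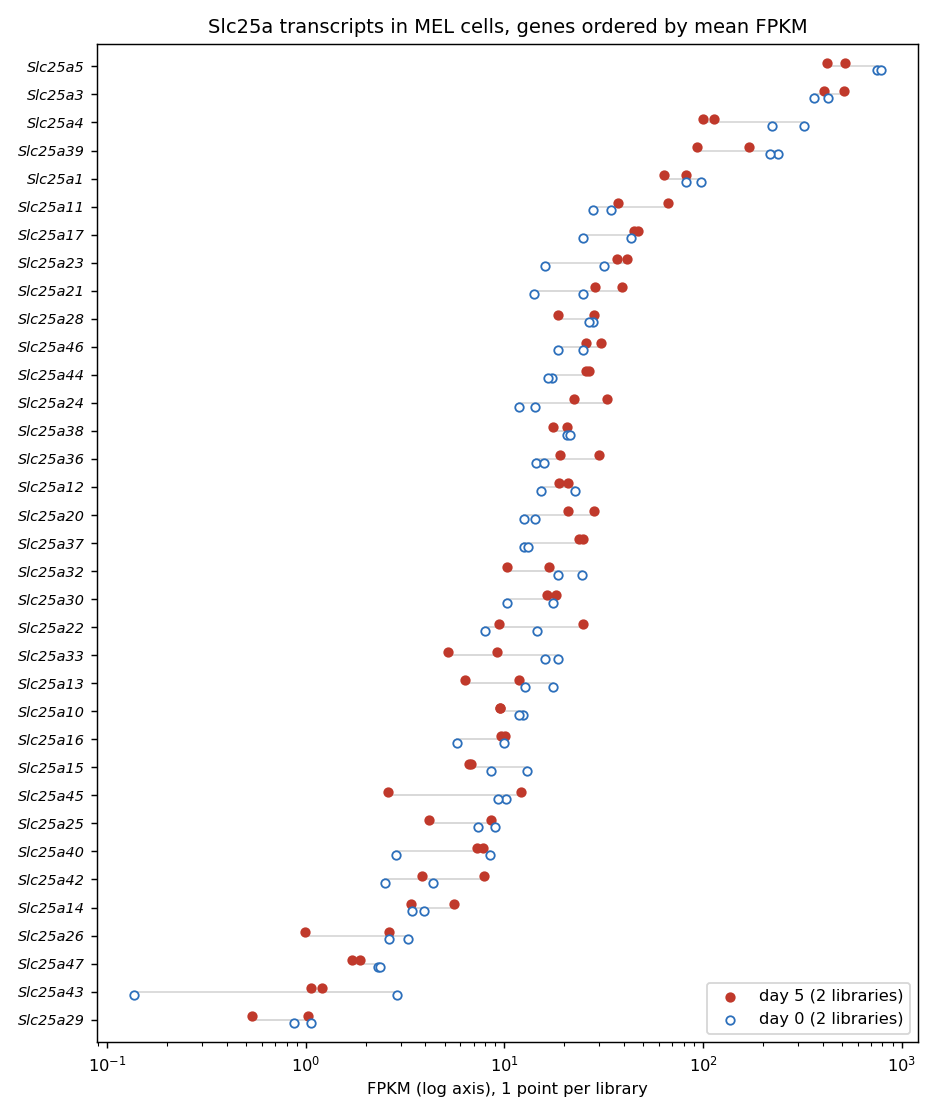
FPKM of 35 of the 36 Slc25a genes tested, on a log axis, with 1 point per library (filled, day 5; open, day 0) and genes ordered by mean FPKM. Slc25a5, Slc25a3, Slc25a4 and Slc25a39 stand above 90 FPKM in every library, and for 16 genes the points of the 2 days overlap.

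The ADP/ATP translocases exchange ATP made in the matrix for cytosolic ADP. Slc25a4 had 99.7 and 113 FPKM in the day 5 libraries, against 222 and 324 FPKM in the day 0 libraries. Both day 5 values were less than the lower of the day 0 values, although the day 0 libraries differed from each other by about 100 FPKM. Slc25a4 fell, with a log2 fold change of -1.33 ± 0.23 (SE, limma adjusted p = 0.0248). In these bulk samples less RNA per cell and fewer cells with the RNA cannot be told apart, here and for every gene. Without any filter on low FPKM it did not pass (0.108), nor with any single library left out (0.0919 to 0.168), and over all 10 alternatives its adjusted p ran from 0.0192 to 0.168. Slc25a5 (ANT2), the translocase of dividing cells, had 517 and 421 FPKM on day 5, against 753 and 784 FPKM on day 0. The groups did not overlap, and its log2 fold change of -0.72 ± 0.18 (SE) lay just outside the threshold (limma adjusted p = 0.0505), with a range of 0.0434 to 0.227 over the alternatives. It was the most abundant member by mean FPKM on both days, on day 5 close to Slc25a3. The ratio of Slc25a5 to Slc25a4 was 5.18 and 3.71 in the day 5 libraries, against 3.4 and 2.42 in the day 0 libraries. Both genes share sequence with each other, and Slc25a5 also with a pseudogene (Slc25a5-ps in the annotation table), so how the authors' quantifier divided shared reads may affect both. Slc25a31, the translocase known from the testis, was listed at 0 in all 4 libraries.

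The promoter windows of Slc25a4 and Slc25a5 are shown because both translocases had lower FPKM in both day 5 libraries and are among the most abundant members. Each runs from 250 bases before to 50 bases after the RefSeq start, 5′ to 3′ along the gene, in build GRCm38.p6. Slc25a4 is at chr8:46211013-46211312 on the minus strand and Slc25a5 at chrX:36795347-36795646 on the plus strand. The authors' regions are in mm9 and were not placed on these windows. Capitals mark matches on either strand to GATA words (AGATAA or the variant AGATAG, and also TGATAA or the variant TGATAG), to TATAA, and to GCCAT, the core of YY1 sites.
Slc25a4: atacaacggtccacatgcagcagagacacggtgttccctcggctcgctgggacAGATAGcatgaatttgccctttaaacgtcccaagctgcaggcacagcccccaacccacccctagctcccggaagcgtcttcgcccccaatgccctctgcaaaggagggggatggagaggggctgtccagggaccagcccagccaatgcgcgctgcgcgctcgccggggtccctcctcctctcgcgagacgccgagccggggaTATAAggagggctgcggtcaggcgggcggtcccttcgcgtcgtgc
Slc25a5: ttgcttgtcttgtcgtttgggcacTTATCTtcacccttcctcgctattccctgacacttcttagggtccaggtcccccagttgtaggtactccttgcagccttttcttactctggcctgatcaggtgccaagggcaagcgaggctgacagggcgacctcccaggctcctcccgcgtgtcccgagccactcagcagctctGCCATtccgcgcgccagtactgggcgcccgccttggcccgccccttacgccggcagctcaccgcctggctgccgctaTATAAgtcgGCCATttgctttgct

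Slc25a4 held AGATAG from base -197, and Slc25a5 held AGATAA on the opposite strand from base -226. Both held TATAA downstream of the RefSeq start, and Slc25a5 alone of these held GCCAT, at 2 positions. GATA letters were found in 29.8% of all 32851 promoter windows and in 9 of 43 windows (20.9%) of the 34 members with an entry. TATAA was found in 24.9% of all windows and 11.6% of the members' windows, and GCCAT in 40.5% and 32.6%. No match overlapped another within these 2 windows. The letters are a description and were not tied to binding.

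Slc25a3 carries phosphate into the matrix for ATP synthesis. It had 514 and 408 FPKM on day 5, against 424 and 359.9 FPKM on day 0, and the groups overlapped (log2 fold change 0.23, 95% interval -0.27 to 0.73). The ATP-Mg/phosphate carriers adjust the size of the matrix nucleotide pool. Slc25a24 had 22.5 and 32.9 FPKM on day 5, against 14.3 and 11.8 FPKM on day 0. Its log2 fold change of 1.01 ± 0.27 (SE) was the highest of the members and did not pass (limma adjusted p = 0.0559). It passed with a filter of 5 FPKM (0.0467) and with globin and mitochondrially encoded genes removed (0.0476), and the range over the alternatives was 0.0467 to 0.255. Slc25a23 had 41.5 and 36.8 FPKM on day 5, against 31.8 and 16.0 FPKM on day 0, so the day 0 libraries spread more widely than the day 5 libraries. Slc25a25 had 8.6 and 4.16 FPKM on day 5, against 9.01 and 7.4 FPKM on day 0, and the groups overlapped. Slc25a41 was listed at 0 throughout.

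Among carriers tied to iron, heme and glutathione, Slc25a37 stood apart from its neighbours in replicate agreement. It had 24.8 and 23.8 FPKM in the day 5 libraries, against 12.5 and 13.2 FPKM in the day 0 libraries. The groups did not overlap and the replicates of each day lay within 1 FPKM of each other, with a ratio of means of 1.89. Outside this group of carriers, Slc25a44, Slc25a10 and the low Slc25a47 also had replicates this close and no overlap between days. Slc25a37 rose, with a log2 fold change of 0.87 ± 0.20 (SE, limma adjusted p = 0.0429). It did not pass after quantile normalization (log2 fold change 0.66, adjusted p = 0.0823), without a filter (0.0666) or with any single library left out (0.122 to 0.188), and over all alternatives its adjusted p ran from 0.0351 to 0.188.

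Slc25a28 (mitoferrin 2), the more widely expressed iron importer, had 18.6 and 28.3 FPKM on day 5, against 27.9 and 26.8 FPKM on day 0. The day 5 libraries enclosed the day 0 values, and the log2 fold change was -0.24 (95% interval -0.9 to 0.41). The ratio of Slc25a37 to Slc25a28 was 1.34 and 0.843 in the day 5 libraries, against 0.448 and 0.491 in the day 0 libraries. In 6 pairs of related carriers, the log2 ratio of FPKM + 1 did not overlap between days in any. Of single genes tested 67.2% did not overlap, and no such share was computed for other pairs of genes. The pairs were not among the planned comparisons. Also, 2 libraries against 2 allow no exact two-sided permutation p under 0.333 (0.333 adjusted over the 6). For the mitoferrins the mean log2 ratio of Slc25a37 to Slc25a28, taken on FPKM + 1, was 1.12 higher on day 5. Slc25a38, which imports glycine for the first step of heme synthesis, had 20.7 and 17.6 FPKM on day 5, against 20.7 and 21.3 FPKM on day 0. Its log2 fold change was -0.13 (95% interval -0.66 to 0.39), which reaches neither 1 nor -1.

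Slc25a39 and Slc25a40 import glutathione. Slc25a39 had 93.6 and 170.4 FPKM on day 5, against 238 and 217 FPKM on day 0. Both day 5 libraries were below both day 0 libraries but far from each other, and the gene did not pass (log2 fold change -0.84 ± 0.31 SE, limma adjusted p = 0.107). Without the lower day 5 library, replicate 1, its log2 fold change was -0.41, and without day 5 replicate 2 it was -1.27. Slc25a40 was far less abundant, at 7.76 and 7.31 FPKM on day 5, against 8.5 and 2.84 FPKM on day 0, with overlapping groups.

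**Figure D2:**
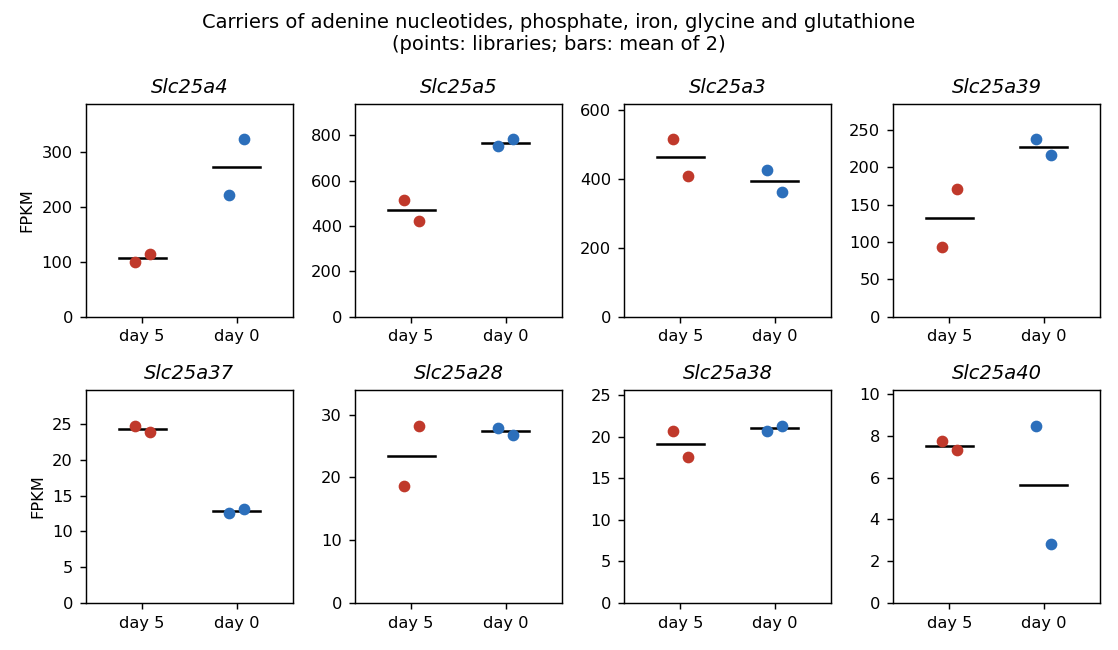
FPKM of 8 carriers in each library (points) with the mean of 2 (bars), day 5 left of day 0, each panel with its own axis from 0. Slc25a4 and Slc25a37 passed the test, Slc25a5 and Slc25a39 had both day 5 libraries below both day 0 libraries without passing, and the days overlapped for the other 4.

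Carriers of other nucleotides and cofactors did not move together. The pyrimidine nucleotide carriers Slc25a33 and Slc25a36 lay on opposite sides of 0. Slc25a33 had 9.19 and 5.2 FPKM on day 5, against 16.0 and 18.7 FPKM on day 0 (log2 fold change -1.21 ± 0.32 SE, limma adjusted p = 0.0559). It passed after quantile normalization (-1.47, adjusted p = 0.0412) and with a filter of 5 FPKM (0.0467), with a range of 0.0412 to 0.266. Slc25a36 had 29.8 and 18.9 FPKM on day 5, against 14.4 and 15.8 FPKM on day 0. The ratio of Slc25a36 to Slc25a33 was 3.24 and 3.64 on day 5, against 0.899 and 0.846 on day 0, so the more abundant carrier of this pair was Slc25a36 in both day 5 libraries and Slc25a33 in both day 0 libraries. The mean log2 ratio of Slc25a33 to Slc25a36, taken on FPKM + 1, differed by -1.83, the largest difference of the 6 pairs.

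Slc25a32, which is linked to folate and flavin import, had 16.8 and 10.3 FPKM on day 5, against 18.7 and 24.5 FPKM on day 0. It was lower in both day 5 libraries without passing (limma adjusted p = 0.178). Slc25a26, the S-adenosylmethionine carrier, overlapped between days at 0.985 and 2.63 FPKM on day 5, against 3.26 and 2.62 FPKM on day 0. Slc25a17, a peroxisomal member of the family, had 47.2 and 44.9 FPKM on day 5, against 43.5 and 24.9 FPKM on day 0. Slc25a16 and Slc25a42, both linked to coenzyme A, overlapped between days at under 11 FPKM in every library.

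In the group of carboxylate and carnitine carriers 3 of 5 members were higher in both day 5 libraries, beside 40.2% of all genes, and 0 were called in limma, with Slc25a20 the 1 member whose unadjusted p was under 0.05. Slc25a20, which carries acylcarnitines in for fatty acid oxidation, had 28.4 and 20.9 FPKM on day 5, against 12.5 and 14.3 FPKM on day 0 (log2 fold change 0.82, limma adjusted p = 0.0702). Slc25a21, a carrier of oxodicarboxylates, had 38.9 and 28.4 FPKM on day 5, against 14.2 and 24.8 FPKM on day 0. Slc25a11, the 2-oxoglutarate/malate carrier, had 66.8 and 37.3 FPKM on day 5, against 34.3 and 27.9 FPKM on day 0, so its day 5 libraries differed from each other more than the nearest libraries of different days. Slc25a1, the citrate carrier, overlapped at 82.2 and 63.6 FPKM on day 5, against 97.7 and 81.8 FPKM on day 0. Slc25a10, the dicarboxylate carrier, had 9.52 FPKM in both day 5 libraries, against 12.4 and 11.9 FPKM on day 0 (log2 fold change -0.32, limma adjusted p = 0.344).

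Of 8 amino acid carriers 6 were tested and 0 passed in limma, with 1 at an unadjusted p under 0.05. That was Slc25a44, a carrier of branched-chain amino acids, with 25.8 and 26.6 FPKM on day 5, against 17.4 and 16.5 FPKM on day 0 (log2 fold change 0.60 ± 0.20 SE, adjusted p = 0.0841). Slc25a12 and Slc25a13 are the aspartate/glutamate carriers of the malate-aspartate shuttle. Slc25a12 overlapped at 21.0 and 18.8 FPKM on day 5, against 22.6 and 15.3 FPKM on day 0, and its log2 fold change of 0.09 was -0.11 after quantile normalization. Slc25a13 had 11.8 and 6.34 FPKM on day 5, against 17.5 and 12.6 FPKM on day 0 (log2 fold change -0.71, adjusted p = 0.204). Its log2 fold change was -1.12 without day 5 replicate 1 and -0.31 without day 5 replicate 2. Slc25a15, the ornithine carrier, had 6.82 and 6.66 FPKM on day 5, against 8.6 and 13.03 FPKM on day 0. The glutamate carrier Slc25a22 spread widely on both days, at 24.8 and 9.41 FPKM on day 5, against 7.95 and 14.6 FPKM on day 0. Slc25a29, a carrier of basic amino acids, stayed at or under 1.06 FPKM in all 4 libraries.

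**Figure D3:**
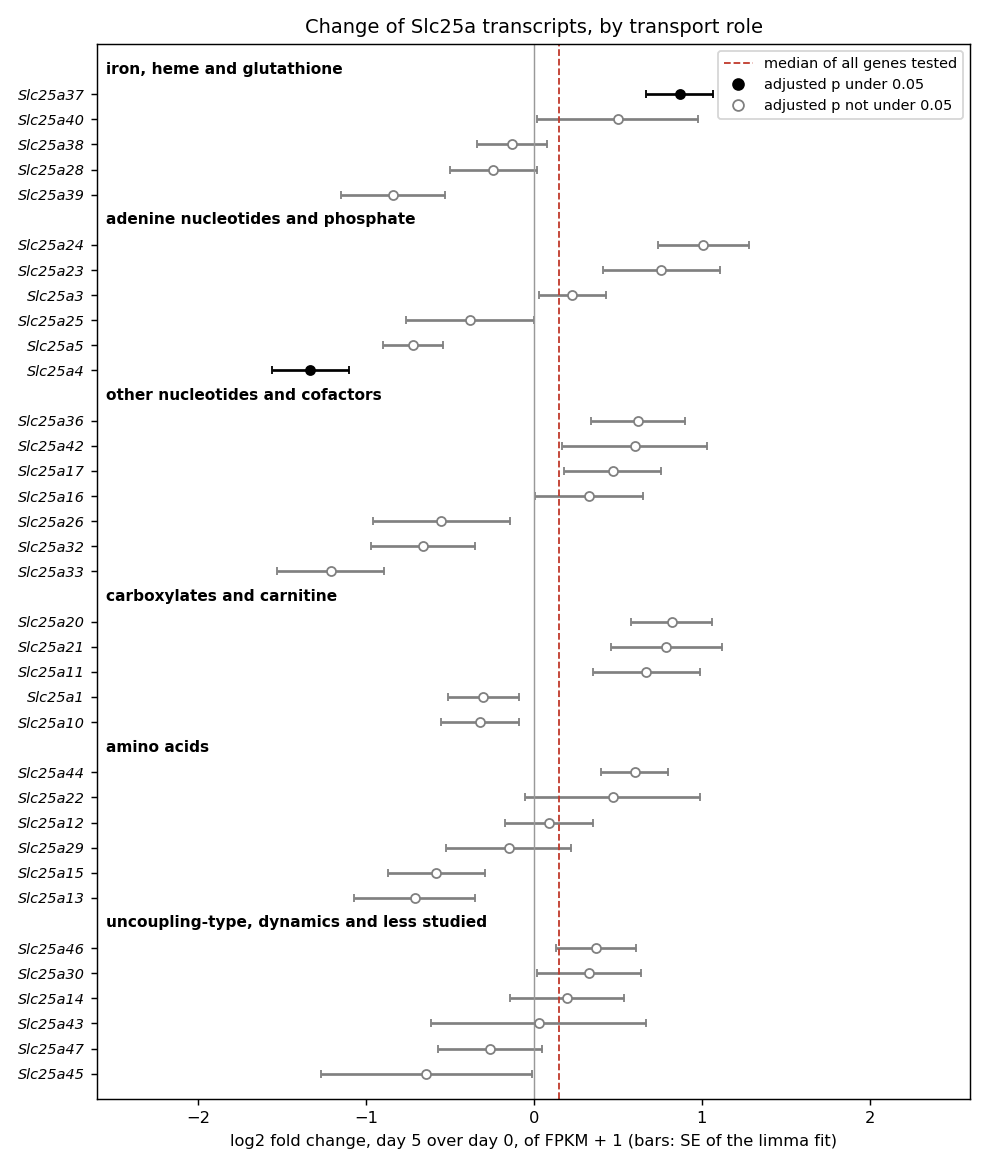
Log2 fold change of FPKM + 1, day 5 over day 0, for 35 of the 36 Slc25a genes tested, grouped by transport role, with SE bars from limma (filled, adjusted p under 0.05). Values run from -1.33 for Slc25a4 to 1.01 for Slc25a24, and every role has members on both sides of 0. The dashed line is the median of all genes tested, 0.15.

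The remaining members are uncoupling-type or less studied. Slc25a46, an outer membrane protein of mitochondrial dynamics, had 25.6 and 30.6 FPKM on day 5, against 18.6 and 24.8 FPKM on day 0 (log2 fold change 0.37, limma adjusted p = 0.304). Slc25a30 and Slc25a14, both of the uncoupling branch, overlapped between days, and the log2 fold change of Slc25a14 was 0.20, and -0.11 after quantile normalization. Slc25a45 had 12.2 and 2.58 FPKM on day 5, against 10.2 and 9.23 FPKM on day 0, so its log2 fold change of -0.64 rested on day 5 replicate 2 and was 0.30 without it. Slc25a43 was uneven on day 0, at 2.87 and 0.137 FPKM. Slc25a47 had 1.71 and 1.87 FPKM on day 5, against 2.32 and 2.37 FPKM on day 0, without overlap (log2 fold change -0.26, limma adjusted p = 0.572). The 8 members that were not tested were Slc25a2, Slc25a18, Slc25a27, Slc25a31, Slc25a34, Slc25a35, Slc25a41 and Slc25a48. Their highest value was 2.52 FPKM, for Slc25a2 in a single day 5 library, and 3 of them were listed at 0 in all 4 libraries.

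Some genes of the same family carry other names in the table. Ucp2, an uncoupling protein gene, had 187 and 187 FPKM on day 5, against 80.3 and 74.0 FPKM on day 0, and it rose (log2 fold change 1.27 ± 0.16 SE, limma adjusted p = 0.0134). Mtch1 and Mtch2, relatives in the outer membrane, had log2 fold changes of 0.77 and -0.33 and did not pass, and Ucp1 and Ucp3 were listed at 0. Mcart1 is named Slc25a51, the mitochondrial NAD carrier, in the gene name table used here. It was looked up after the members' values were seen. The same search found Mcart6 (now Slc25a53), at 0 and 0 FPKM on day 5, against 0.492 and 0.0977 FPKM on day 0. It also found 4930443G12Rik (now Slc25a54), listed at 0 throughout, and neither gene was tested. Mcart1 had 80.4 and 79.2 FPKM on day 5, against 26.8 and 29.7 FPKM on day 0, and it rose (log2 fold change 1.47 ± 0.17 SE, limma adjusted p = 0.0122). It also passed in 6 of 10 alternatives, and not with any single library left out (0.0727 to 0.168).

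Lists of genes around the carriers gave other counts, beside the background of 18.5% called. None of the genes named in these lists passed with any single library left out, and without a filter on low FPKM 1 import, 0 other transporter, 1 heme and 1 citric acid cycle gene passed. Carriers are brought to the inner membrane by the outer membrane TOM pore and the TIM22 route. Of 16 genes of this pathway 1 rose and 5 fell, with a median log2 fold change of -0.35. Tomm5, a small TOM subunit, had 84.1 and 148 FPKM on day 5, against 516 and 588 FPKM on day 0 (log2 fold change -2.29, limma adjusted p = 0.014). Timm8a1, a chaperone of the intermembrane space, had 37.5 and 53.7 FPKM on day 5, against 180.0 and 192 FPKM on day 0 (-2.02, 0.0109). Timm22, the insertase that places carriers in the inner membrane, had 102 and 61.0 FPKM on day 5, against 35.0 and 32.9 FPKM on day 0. It rose (log2 fold change 1.2, limma adjusted p = 0.0432), but not with a pseudocount of 0.1 (0.0502) or quantile normalization (0.0528), with a range of 0.0354 to 0.235.

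Of 21 other mitochondrial membrane transporter genes 5 rose and 1, Sfxn5, was called lower, with a median log2 fold change of 0.04. Abcb10, known to associate with mitoferrin 1, had 307 and 322 FPKM on day 5, against 59.4 and 45.4 FPKM on day 0 (log2 fold change 2.58, limma adjusted p = 0.00552). Tspo, an outer membrane protein, had 98.7 and 61.8 FPKM on day 5, against 13.8 and 5.08 FPKM on day 0 (3.06, 0.02). Sfxn5, a sideroflexin gene, had 0.893 and 0 FPKM on day 5, against 6.31 and 5.13 FPKM on day 0 (-2.28, 0.0285). It missed the threshold when the pseudocount was 0.1 (log2 fold change -4.20, limma adjusted p = 0.0713) and without a filter (0.108). Both day 5 values were under 1 FPKM, so this gene met the filter through its day 0 libraries alone. That filter favors genes that are high on day 0, and no fall of Sfxn5 is concluded here.

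Of 9 heme synthesis genes 5 rose and 0 fell in limma (8 had an unadjusted p under 0.05 in either direction), with a median log2 fold change of 1.58. Alas2, the erythroid enzyme that joins glycine and succinyl-CoA, had 647 and 752 FPKM on day 5, against 19.7 and 10.7 FPKM on day 0. Fech, which puts iron into the porphyrin ring, had 178 and 186 FPKM on day 5, against 37.7 and 30.6 FPKM on day 0. Of 21 genes of the citric acid cycle and the malate-aspartate shuttle 0 rose and 3 fell in limma (7 at an unadjusted p under 0.05), with a median of -0.31. The 3 called are 14.3%, beside 18.5% of all genes called in either direction and 7.81% called lower. Both day 5 libraries lay below both day 0 libraries for 15 of the 21, beside 27.0% of all genes. They lay above for 3, beside 40.2%, and no test was made of the list as a set. Idh3a, a subunit of isocitrate dehydrogenase, had 82.0 and 80.9 FPKM on day 5, against 186 and 195 FPKM on day 0 (log2 fold change -1.21, adjusted p = 0.0139). Got2, the mitochondrial aspartate aminotransferase, had 64.9 and 57.6 FPKM on day 5, against 125 and 119 FPKM on day 0 (-0.98, 0.0231).

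**Figure D4:**
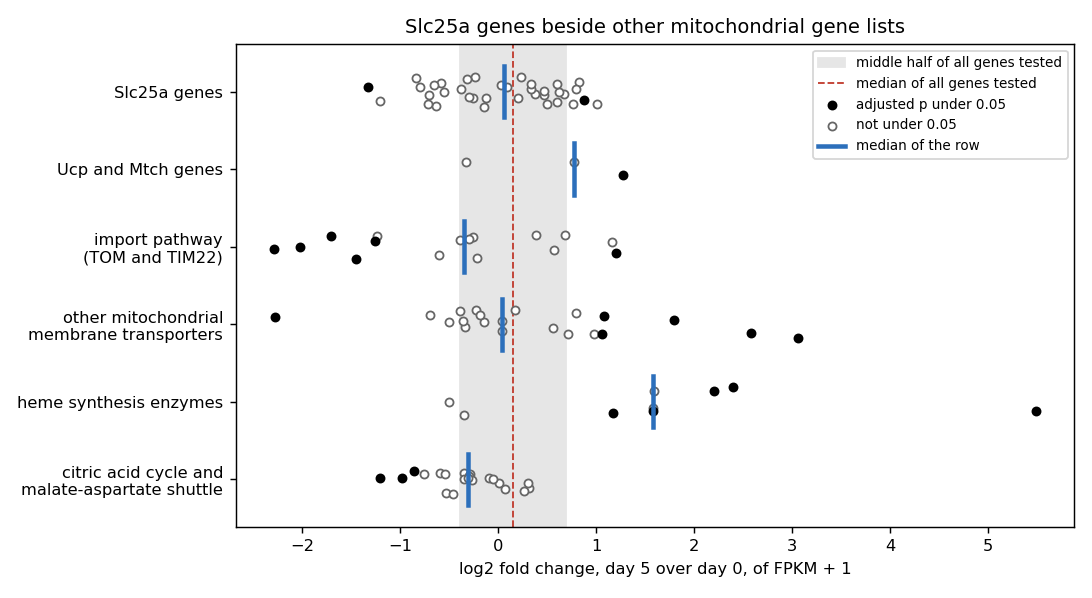
Log2 fold change of FPKM + 1, day 5 over day 0, of the genes tested in the Slc25a family and in 5 other lists (points, filled at an adjusted p under 0.05), with the median of each list, and the median and quartiles of all genes tested. The Slc25a genes lie between -1.33 and 1.01 around a median of 0.06, and the heme synthesis genes around 1.58.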

How the data were processed

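RNA of 4 libraries was used. The values are FPKM per gene, deposited by the authors in 1 table from stranded RNA-seq, per the labels' protocols; per the submitters' processing notes Bowtie was used with mm9, and for the quantifier none is given in the sources used here. Some FPKM of 0 may be failed estimates and are described as listed at 0. The other assays carry mm9 regions without gene names and were not used here. Slc25a rows were read from a fit over all 10736 genes that reached 1 FPKM in 2 or more libraries, by limma 3.58.1 in R 4.3.3 on log2(FPKM + 1) (lmFit, eBayes with trend, two-sided, day as the term). Tables and exact permutation tests were made in Python 3.11.15. The limma step was first tested on simulated data. It called 14 of 100 genes with a log2 change of 1, 94 of 100 with a change of 2, and 16 unchanged genes. Fewer genes changed in the simulation than were called in the data, so these shares do not carry over directly. A gene that was not called may still have changed. The lists held 73 symbols, all found, 7 of them by current names paired with the IDs.

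The members and lists were chosen with earlier results of these data known, and transport roles were assigned after the values were seen. Named by rule were the called members, the 10 highest in mean FPKM, Slc25a37, Slc25a28, Slc25a38, Slc25a39, Slc25a4 and Slc25a5, and up to 2 called genes per direction of each list. The other members are given to account for the family; 1 member counted in the totals is not reported here. Promoters came from RefSeq (GRCm38.p6) by symbol, and 34 of 44 members had an entry; Slc25a37 was among those without. Alternatives were another pseudocount, other filters, quantile normalization, removal of globin and mitochondrially encoded genes, a replicate block and leaving out each library. The windows around start sites planned for the regions were not run.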

Additional observations from a re-analysis of the deposited data

How the results depend on the processing

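Read depth is unknown, and 2 libraries a day limit the precision. With no filter on low FPKM, 237 of all genes passed in limma (120 higher, 117 lower), 0 Slc25a genes (8 at an unadjusted p under 0.05), 1 import pathway gene, 0 other transporter genes (10 unadjusted), 1 heme and 1 citric acid cycle gene. With a filter of 5 FPKM 5 of 30 Slc25a genes tested passed, 2 higher and 3 lower. Of all 8751 genes then tested 2120 passed, 1218 higher and 902 lower. After quantile normalization 0 Slc25a genes were higher and 2 lower, beside 814 and 895 of all genes, whose median was 0.01. With globin and mitochondrially encoded genes removed 2 Slc25a genes were higher and 1 lower, beside 1393 and 722 of all genes. The replicate block left 1797 of all genes and 1 Slc25a gene, Slc25a4, with 0 higher (12 unadjusted in limma), Slc25a37 being at 0.0625. Replicate numbers are not said to mark a shared culture, and the differences between replicates correlated at 0.048 across days, so the libraries share only a number. With 1 library left out, the remaining library of that day was taken to vary as the other day does. Then 0 to 13 of all genes passed (0 to 2 higher, 0 to 11 lower; 2504 to 3440 unadjusted), and 0 Slc25a genes (4 to 9 unadjusted). In each of the 5 lists 0 genes passed then in limma (24 to 31 unadjusted over all lists). The cause was not tested.

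Across 48 genes and 474 alternative values the direction turned in 15, none of a gene that had passed. After quantile normalization the log2 fold change was -0.11 for Slc25a12, -0.19 for Slc25a43 and -0.11 for Slc25a14. With 1 library left out it ran from -0.16 to 1.15 for Slc25a40, -0.53 to 0.05 for Slc25a28, -0.35 to 0.05 for Slc25a29, -0.03 to 0.69 for Slc25a30 and -0.02 to 0.67 for Slc25a16. It ran from -0.17 to 0.35 for Slc25a12, -0.86 to 0.91 for Slc25a43, -0.83 to 0.07 for Slc25a25, -1.58 to 0.30 for Slc25a45, -0.10 to 0.49 for Slc25a14 and -0.18 to 1.12 for Slc25a22.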
